A study of Homo sapiens with 6 samples.

Results

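The enzymes described here are encoded by 9 genes. PHGDH, PSAT1 and PSPH belong to serine synthesis, and SHMT1 and SHMT2 split serine into glycine and a carbon unit. MTHFD1, MTHFD2, MTHFD1L and ALDH1L2 act on that unit in folate metabolism. The 9 genes were chosen by gene symbol, and all 9 were found among the 56638 symbols of the count tables. The cells were DLD-1, an established human colorectal cancer line, and received either control siRNA or siRNA to the long non-coding RNA lncSLCC1. Each group had 3 RNA-seq libraries, named controls and treated libraries here. The comparison asks which of these transcripts differ when lncSLCC1 is targeted. The number of siRNAs, the time after transfection and the origin of the replicates from separate cultures were not given in the sources used here. The p-values therefore reflect only library-to-library spread, which may be technical.

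Cells make serine from a glycolytic intermediate in 3 steps, run in order by PHGDH, PSAT1 and PSPH. Serine is then cleaved to glycine, and the released carbon is bound to tetrahydrofolate, in the cytosol by SHMT1 and in mitochondria by SHMT2. In mitochondria MTHFD2 and MTHFD1L oxidise the unit and release it as formate, which MTHFD1 loads back onto folate in the cytosol for the synthesis of purines and thymidylate. These enzymes are known to be strongly expressed in many proliferating and tumour cells, and ATF4 and MYC are known to drive the transcription of several of them.

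Gene reads per library numbered 12572277 to 15568075. lncSLCC1 is listed in the tables as RP11-400N13.2, the name that the series title pairs with it. In CPM, the reads of a gene scaled to a common library size, it stood at 5.19, 9.29 and 9.03 in control replicates 1, 2 and 3 and at 1.66, 2.61 and 2.10 in treated replicates 1, 2 and 3, so every treated library lay below every control (adjusted p = 0.0027 by edgeR). All CPM values use library sizes scaled by TMM, a method that aligns libraries on the bulk of their genes. The 8 epithelial and colon markers examined were all detected, with a summed level of 5760 to 7184 CPM in controls and 5862 to 6193 CPM in treated libraries. KRT8 made up most of that sum, and LGALS4 was listed at no more than 2.72 CPM. VIL1 rose from 17.2 ± 3.04 to 31.5 ± 3.51 CPM (SD, n = 3 each; adjusted p = 0.00618 by edgeR), while CDH1 was higher and CDX2 lower in every treated library without passing the test (adjusted p = 0.0619 and 0.075 by edgeR); the part of these differences in the results was not tested. Of 8 markers of other cell types, 6 were under 1 CPM in every library, PECAM1 and INS were at 0 throughout, and the summed level was 2.79 to 4.41 CPM in controls and 3.27 to 3.98 CPM in treated libraries. The controls were more scattered than the treated libraries: the chi-square statistic per gene between replicates was 5.46 to 28.0 in controls and 1.79 to 1.90 after lncSLCC1 siRNA. Control replicate 1 was the highest control for 7 of the 9 enzymes and the lowest for the other two, PSAT1 and MTHFD2.

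RefSeq promoter windows were matched for 6 of the 9 genes, PHGDH, PSAT1, SHMT1, MTHFD1, MTHFD1L and MTHFD2, so SHMT2, PSPH and ALDH1L2 were not searched. The 6 were searched on both strands for TGATGNAA, the element that ATF4 binds with C/EBP partners, and for CACGTG, the E-box that MYC can bind; the 2 motifs do not overlap each other. Each window runs from 250 bases before a transcript start to 50 after it, and of 35116 windows of that length 3.62% hold the first motif and 7.26% the second. The stretches before the start of MTHFD1L and MTHFD1 are shown because these mitochondrial and cytosolic relatives were the members with a match among the 6 searched, and that of PHGDH because it had the largest difference among the serine synthesis genes. Capitals mark the matches. All 3 lie on the plus strand of build GRCh38.p14, at chr6:150866236-150866485, chr14:64388103-64388352 and chr1:119711684-119711933.
MTHFD1L: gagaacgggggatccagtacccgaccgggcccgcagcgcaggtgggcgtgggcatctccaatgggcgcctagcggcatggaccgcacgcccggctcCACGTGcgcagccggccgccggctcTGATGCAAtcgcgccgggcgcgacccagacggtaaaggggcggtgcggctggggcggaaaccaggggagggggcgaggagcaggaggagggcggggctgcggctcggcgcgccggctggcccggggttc
MTHFD1: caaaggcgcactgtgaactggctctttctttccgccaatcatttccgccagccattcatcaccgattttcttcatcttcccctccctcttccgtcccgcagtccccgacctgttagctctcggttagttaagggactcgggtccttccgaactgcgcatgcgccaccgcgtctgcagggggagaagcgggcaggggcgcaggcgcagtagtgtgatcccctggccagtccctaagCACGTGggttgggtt
PHGDH: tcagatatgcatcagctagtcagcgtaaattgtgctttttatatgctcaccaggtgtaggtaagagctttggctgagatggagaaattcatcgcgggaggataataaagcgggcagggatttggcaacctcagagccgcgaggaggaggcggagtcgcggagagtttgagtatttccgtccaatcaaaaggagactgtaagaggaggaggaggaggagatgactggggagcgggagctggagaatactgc

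In the MTHFD1L window the E-box begins at -154 and the TGATGCAA match at -129 from the start site. RefSeq gives MTHFD1L 4 starts, and 3 of their windows overlap and hold the same 2 matches. In the MTHFD1 window the E-box begins at -15. The windows of PHGDH, PSAT1, SHMT1 and MTHFD2 hold neither motif, which says only that these letters are not in those 300 bases.

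Among the 9 enzymes, SHMT2 fell after lncSLCC1 siRNA, and no other difference passed the test, an adjusted p under 0.05 by edgeR over all genes tested. All 9 had enough reads to be among the 15242 genes tested. The 1 call in 9 (11.1%) compares with 7.39% of all tested genes called lower, so the count alone sets the group little apart from the background, and 0 members were called higher against 6.46% of all genes. The median log2 fold change of the 9 was -0.12, where that of all tested genes was 0.007. For 5 members, SHMT2, PHGDH, PSAT1, MTHFD1L and MTHFD2, every treated library lay below every control, a pattern seen in 19.6% of tested genes. Scaled by library totals alone, a setting added after seeing the data, this held for 2 members, SHMT2 and PHGDH, against 14.5% of tested genes. No member lay above every control in all treated libraries, against 19.4% of tested genes.

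SHMT2, the mitochondrial serine hydroxymethyltransferase, had the highest level per kilobase of the 9 in controls and stood at 325, 280 and 267 CPM in replicates 1, 2 and 3. After lncSLCC1 siRNA it was at 173, 161 and 172 CPM. The groups were far apart, with the highest treated library well below the lowest control. Mean SHMT2 was 290.8 ± 30.6 CPM in controls and 168.9 ± 6.47 CPM in treated libraries (SD, n = 3 each), or 58.1% of control. By edgeR this was a log2 fold change of -0.78 with an SE of 0.090 and a 95% confidence interval of -0.98 to -0.58 (adjusted p = 0.000876). Controls had 4110 to 4577 SHMT2 reads and treated libraries 2213 to 2611. The call held in all 15 alternative analyses, with log2 fold changes of -0.85 to -0.70 and adjusted p-values of at most 0.0141.

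SHMT1, the cytosolic form of the same enzyme, overlapped between the groups. It was at 139, 123 and 114 CPM in controls and at 118, 118 and 121 CPM in treated libraries. The treated libraries lay inside the range of the controls (edgeR log2 fold change -0.07, 95% confidence interval -0.27 to 0.12, adjusted p = 0.607). Its sign turned without control replicate 1, to 0.005.

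**Figure D1:**
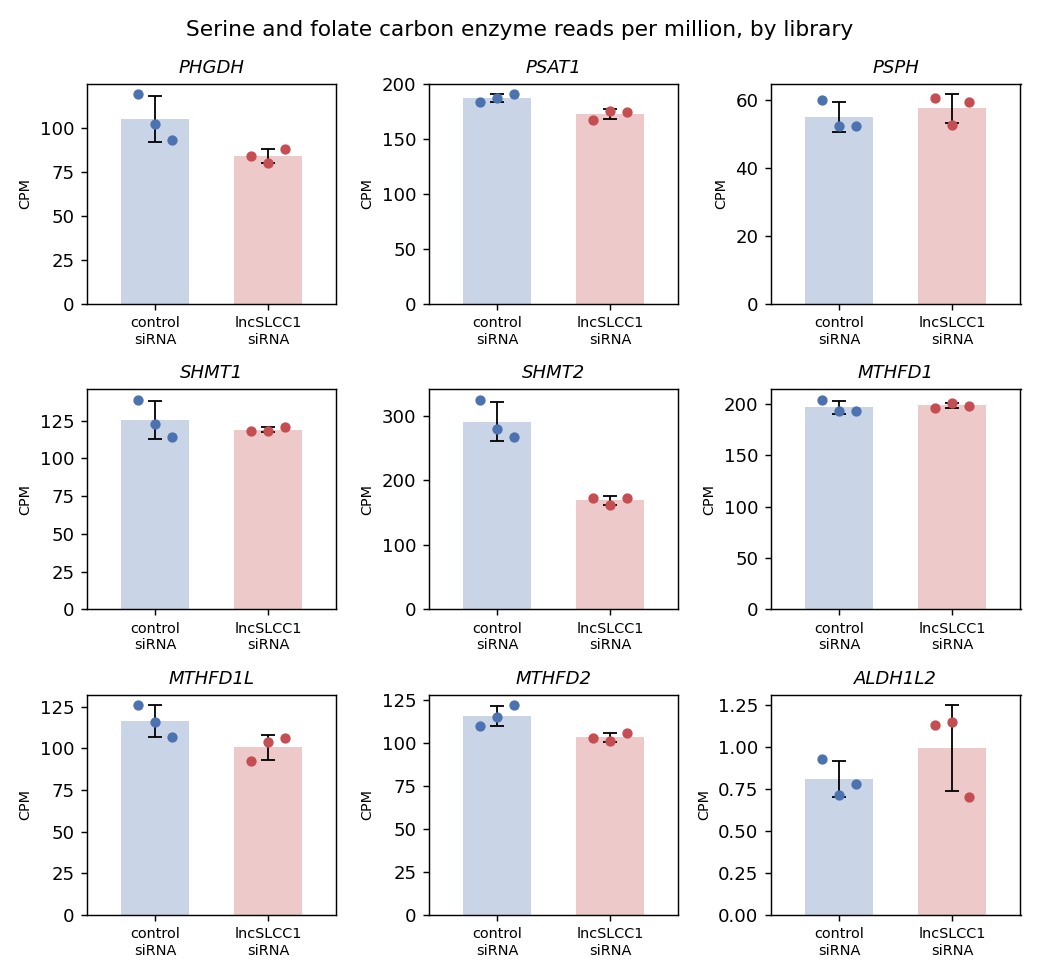
CPM (y axis, from 0, a scale of its own for each gene) of the 9 enzymes in 3 control siRNA libraries (blue) and 3 lncSLCC1 siRNA libraries (red); points are libraries, bars are means and whiskers are SD. SHMT2 drops from 290.8 to 168.9 CPM with no overlap, while SHMT1, MTHFD1 and PSPH overlap between the groups.

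The ratio of the 2 forms shows the same within each library, without use of library size. SHMT2 had 2.34, 2.28 and 2.33 reads for each SHMT1 read in control replicates 1, 2 and 3, and 1.46, 1.37 and 1.42 in the treated libraries. The 3 controls were close together although both genes varied among them, and the 2 groups were widely separated. The mean log2 ratio went from 1.21 ± 0.021 to 0.50 ± 0.047 (SD, n = 3 each), a difference of -0.71. An exact two-sided permutation test returned p = 0.1, which is the lowest possible with 3 libraries a side, and 0.15 after adjustment over the 3 ratios compared.

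The other mitochondrial enzymes moved less against their cytosolic counterpart. MTHFD1L had 0.616, 0.598 and 0.554 reads per MTHFD1 read in controls and 0.470, 0.519 and 0.535 after lncSLCC1 siRNA, with no overlap (log2 difference -0.21, exact permutation p = 0.1, adjusted 0.15). MTHFD2 had 0.536, 0.594 and 0.630 reads per MTHFD1 read in controls and 0.524, 0.503 and 0.537 after lncSLCC1 siRNA. Here control replicate 1 lay within the treated range (log2 difference -0.17, exact permutation p = 0.2, adjusted 0.2). The read counts of different genes also reflect transcript length, so only changes of a ratio between libraries are compared.

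**Figure D2:**
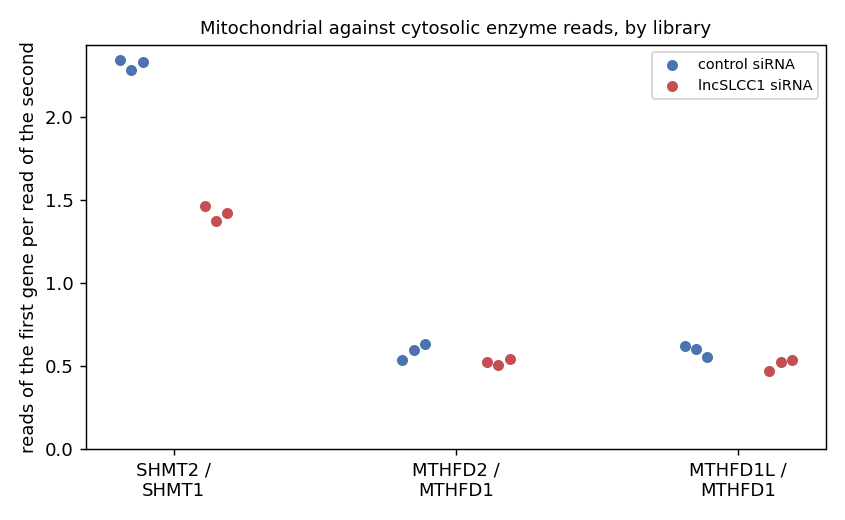
Reads of SHMT2 per SHMT1 read, of MTHFD2 per MTHFD1 read and of MTHFD1L per MTHFD1 read (y axis, from 0), each point 1 library, control siRNA in blue and lncSLCC1 siRNA in red. The SHMT2 to SHMT1 ratio separates the groups, from 2.28 or more to 1.46 or less, while the MTHFD2 to MTHFD1 ratios meet near 0.54.

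In the serine synthesis branch the first enzyme gene differed most and did not pass the test. PHGDH, the dehydrogenase that commits a glycolytic intermediate to serine, was at 119, 102 and 93.1 CPM in controls and 83.8, 80.1 and 88.0 CPM in treated libraries. All treated libraries were below all controls, with the closest pair at 88.0 and 93.1 CPM. The mean was 80.1% of the control level (edgeR log2 fold change -0.32 with an SE of 0.103, 95% confidence interval -0.55 to -0.09, adjusted p = 0.0637). The difference passed the test without control replicate 1 (-0.22, adjusted p = 0.0129 by edgeR), the library where PHGDH was highest. It also passed without control replicate 3 (-0.40, adjusted p = 0.0148 by edgeR). In these 2 settings 15.5% and 13.4% of all tested genes were called lower. Without control replicate 2 or any single treated library PHGDH did not pass (adjusted p = 0.149 to 0.238 by edgeR).

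PSAT1, the aminotransferase of the middle step, was at 184, 188 and 191 CPM in controls and 168, 176 and 175 CPM in treated libraries. The groups did not overlap, yet the gap was small (edgeR log2 fold change -0.12, 95% confidence interval -0.27 to 0.04, adjusted p = 0.288). PSPH, the phosphatase that releases serine, was at 59.9, 52.2 and 52.4 CPM in controls and 60.5, 52.7 and 59.2 CPM in treated libraries. Its groups overlapped almost fully (edgeR log2 fold change 0.07, 95% confidence interval -0.15 to 0.29, adjusted p = 0.668). PSPHP1, a pseudogene copy of PSPH, was at 2.27 to 2.86 CPM in controls and 3.44 to 3.98 CPM in treated libraries (adjusted p = 0.0624 by edgeR), and how many reads were shared between the copies is not known.

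Among MTHFD1, MTHFD1L, MTHFD2 and ALDH1L2, which act on the carbon unit in folate metabolism, no difference passed the test. MTHFD1, the trifunctional cytosolic enzyme, was at 204, 193 and 193 CPM in controls and 196, 201 and 198 CPM in treated libraries. These values interleave, and the 95% confidence interval of the log2 fold change (0.008, adjusted p = 0.954 by edgeR) ran from -0.15 to 0.17. The sign of so small a value was not stable: it was -0.070 with GC content and length offsets. MTHFD1P1, its pseudogene copy, was listed at 2.52 to 3.89 CPM over the 6 libraries. SHMT1P1 had a single read in each of 2 libraries, and MTHFD2P1, MTHFD2P6, PSAT1P1, PSAT1P3 and PSAT1P4 were listed at 0.

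MTHFD1L, the mitochondrial formate-releasing synthetase, was at 126, 116 and 107 CPM in controls and 92.2, 104 and 106 CPM in treated libraries. The groups did not overlap, but the lowest control and the highest treated library nearly met (edgeR log2 fold change -0.21 with an SE of 0.093, adjusted p = 0.157). MTHFD2, the mitochondrial dehydrogenase and cyclohydrolase, was at 110, 115 and 122 CPM in controls and 103, 101 and 106 CPM in treated libraries. It too was lower in every treated library (edgeR log2 fold change -0.16 with an SE of 0.079, adjusted p = 0.19). The difference passed the test without control replicate 1 (-0.20, adjusted p = 0.0153 by edgeR). With any other single library left out MTHFD2 did not pass (adjusted p = 0.275 to 0.448 by edgeR). ALDH1L2, the mitochondrial formyltetrahydrofolate dehydrogenase, rested on 9 to 18 reads per library, at 0.924, 0.715 and 0.779 CPM in controls and 1.13, 1.15 and 0.700 CPM in treated libraries. Its groups overlapped, and at this depth the 95% confidence interval of the log2 fold change was wide, from -0.37 to 1.01.

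**Figure D3:**
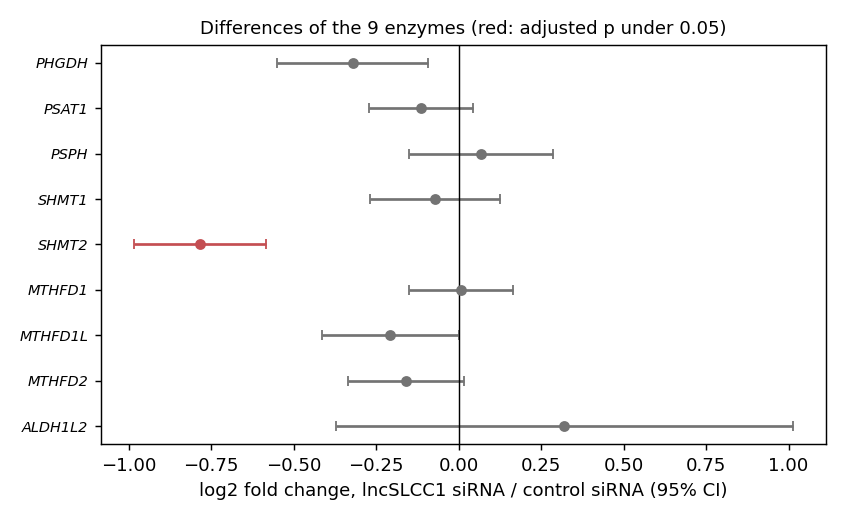
Log2 fold change (x axis) of each enzyme gene for lncSLCC1 siRNA against control siRNA by edgeR, with 95% confidence intervals; red marks an adjusted p under 0.05. SHMT2 stands at -0.78 with its interval below the intervals of the other 8 genes.

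Summed over the 9 genes, the level was 1268, 1169 and 1141 CPM in controls and 995.9, 994.6 and 1026 CPM in treated libraries. With TMM scaling SHMT2 made up 65.1% of the fall of the mean, from 1193 to 1006 CPM. Without SHMT2 the sum was 942.7, 889.0 and 873.8 CPM in controls and 822.8, 833.2 and 853.9 CPM in treated libraries. That gap depended on the scaling: on library totals the sum without SHMT2 was 891.9, 879.0 and 869.1 CPM in controls and 841.2, 856.4 and 873.3 CPM in treated libraries, which overlap. The share of SHMT2 depended on it too. On library totals the mean sum went from 1163 to 1030 CPM for the 9 genes and from 880 to 856.9 CPM without SHMT2.

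Levels of different genes were compared per kilobase of the longest principal transcript in GENCODE 29. In controls the order was SHMT2 at 115 ± 12.1, PSAT1 at 85.6 ± 1.59, MTHFD1 at 62.8 ± 2.07, SHMT1 at 50.9 ± 5.05 and PHGDH at 40.6 ± 5.17 CPM per kilobase (SD, n = 3 each). MTHFD1L at 32.2 ± 2.60, MTHFD2 at 25.9 ± 1.38 and PSPH at 25.2 ± 2.02 CPM per kilobase followed, the last pair within each other's spread, and ALDH1L2 was last at 0.107 ± 0.014. After lncSLCC1 siRNA PSAT1 came first, at 79.1 ± 2.03, and SHMT2 stood at 66.6 ± 2.55 CPM per kilobase, close to MTHFD1 at 63.1 ± 0.733. MTHFD1L, at 27.9 ± 2.05, and PSPH, at 26.4 ± 1.92, were then within each other's spread. The place of MTHFD1 depended on the transcript: per kilobase of its longest transcript, of 6814 bases, it was at 28.9 ± 0.953 in controls and 29.1 ± 0.337 CPM in treated libraries, below SHMT1 and PHGDH in both groups.

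The number of members called depended on the setting. With GC content and length offsets 5 were called lower, SHMT2, PHGDH, PSAT1, MTHFD2 and MTHFD1L, where 19.3% of all tested genes were. Without control replicate 1 it was 3 (15.5% of all genes), without control replicate 3 it was 2 (13.4%), and with no low-count filter 2 (5.57%). The share of higher genes among all calls was 46.6%, 38.2% with the offsets and 63.7% with library totals alone.

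Of the 9 genes, 5 share exon bases with another annotated gene in GENCODE 29, and strand use in counting is not given in the sources used here. SHMT2 shares 33 bases with NDUFA4L2, a gene on the other strand at 1.34 CPM in controls and 1.00 CPM in treated libraries, and 427 bases with an antisense RNA. The longest shared stretch is 1324 bases, between MTHFD2 and SLC4A5, which was at 0.332 to 0.892 CPM. Of the 10 overlapping genes, the tables list 5 under the same name, at up to 28.4 CPM, and the part of such reads in the results was not tested.

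The wider pathway was examined through 6 lists of 56 genes, of which 44 were tested. Of these, 6 fell (13.6%, against 7.39% of all tested genes) and 5 rose (11.4%, against 6.46%), and their median log2 fold change was -0.07. The lists were chosen with earlier results of these data known, so an excess over the shares of all genes is a description only. GLDC, among the 5 that rose, passed the expression filter only through its treated libraries.

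Among the 6 that fell, the folate carrier SLC19A1 had the largest fold change. SLC19A1, which brings reduced folate into the cell, was at 73.8, 55.7 and 56.0 CPM in controls and 32.5, 35.6 and 33.1 CPM in treated libraries. The groups were clearly apart, and the mean fell to 54.5% of the control level (edgeR log2 fold change -0.87 with an SE of 0.124, adjusted p = 0.00271). The other 5 tested genes of folate uptake and retention did not pass the test: the proton-coupled carrier SLC46A1, the mitochondrial carrier SLC25A32, the receptor FOLR1, and FPGS and GGH, which add and remove the glutamate tail that keeps folate in cells. All 6 had a negative log2 fold change, from -0.87 to -0.05, but the 95% confidence intervals of SLC46A1, SLC25A32, FOLR1 and FPGS included 0. Signs of small values depend on the scaling: the median over all tested genes was 0.007, and 0.076 on library totals. FOLR2 was listed at 0 in every library.

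Among folate enzymes outside the members, 3 that use the carbon unit for nucleotides did not pass the test, with TYMS at 51.5 and 53.1, GART at 295.6 and 263.5 and ATIC at 230.1 and 215.4 CPM in controls and treated libraries. ALDH1L1, the cytosolic relative of ALDH1L2, was at 3.65 and 4.10 CPM, and MTHFD2L, the relative of MTHFD2, at 11.97 and 12.2 CPM (adjusted p = 0.591 and 0.969 by edgeR). MTHFS stayed under 1 CPM in every library.

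Glycine cleavage breaks glycine down in mitochondria to yield a further carbon unit. Of 7 tested genes of glycine cleavage and use, 2 rose, both from low levels, and 0 fell, against 6.46% and 7.39% of all tested genes. GLDC, the decarboxylase, had 2, 8 and 3 reads in controls and 15, 17 and 9 after lncSLCC1 siRNA, from a mean of 0.286 ± 0.205 to 0.926 ± 0.201 CPM (n = 3 each, SD; edgeR log2 fold change 1.67 with an SE of 0.463, adjusted p = 0.0413). AMT, the aminomethyltransferase, was at 5.26, 4.16 and 3.25 CPM in controls and 7.36, 6.63 and 5.99 CPM in treated libraries (edgeR log2 fold change 0.67 with an SE of 0.189, adjusted p = 0.0447). Both pass the threshold narrowly, and for each the treated libraries lay above all controls. GLDC passed the default expression filter only through its treated libraries, so its place among the 2 that rose was favoured by the filter. With a filter on a mean of at least 1 CPM it was not tested. The log2 fold change of GLDC was 2.40 without control replicate 2, the control with 8 reads. The carrier protein gene GCSH and the dehydrogenase gene DLD did not pass the test. TDH, SARDH and GLYAT, also on this list, were under 1 CPM in every library.

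In the methionine cycle, which takes the methyl group from folate, 2 of 8 tested genes fell and 1 rose, against 7.39% and 6.46% of all tested genes. MAT2A, which makes the methyl donor S-adenosylmethionine, was at 418, 422 and 472 CPM in controls and 338, 333 and 334 CPM in treated libraries (edgeR log2 fold change -0.39, adjusted p = 0.0117). MTRR, which reactivates methionine synthase, fell from 40.2 ± 2.56 to 30.6 ± 1.98 CPM (SD, n = 3 each; adjusted p = 0.03 by edgeR). AHCYL2, a relative of the hydrolase AHCY, rose from 19.1 ± 0.267 to 24.3 ± 1.02 CPM (SD, n = 3 each; adjusted p = 0.0433 by edgeR). The liver-type genes MAT1A, BHMT and BHMT2 were under 1 CPM throughout.

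Among 8 tested genes of enzymes that use serine, 2 fell and 1 rose, against 7.39% and 6.46% of all tested genes. PTDSS1 and PTDSS2, which make phosphatidylserine, fell to 79.8% and 72.6% of the control level (log2 fold changes -0.33 and -0.46, adjusted p = 0.0218 and 0.0161 by edgeR). SPTLC3, a subunit of the serine palmitoyltransferase that starts sphingolipid synthesis, rose, with a mean of 23.5 ± 3.39 CPM in controls and 35.0 ± 0.999 CPM in treated libraries (n = 3 each, SD; edgeR log2 fold change 0.57, adjusted p = 0.014). The subunit genes SPTLC1 and SPTLC2 did not pass the test. CBS, which joins serine to homocysteine, and SDS were under 1 CPM in every library.

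Among carriers of serine and glycine, 1 of 6 tested genes fell, against 7.39% of all tested genes. SFXN3, a mitochondrial sideroflexin, was at 107, 102 and 94.0 CPM in controls and 67.9, 68.5 and 65.6 CPM in treated libraries (edgeR log2 fold change -0.59 with an SE of 0.083, adjusted p = 0.00277). Its relative SFXN1, the mitochondrial serine carrier, was at 218 to 222 CPM in controls and 219 to 223 CPM in treated libraries (edgeR log2 fold change 0.005, adjusted p = 0.967). SLC6A14 was under 1 CPM in every library.

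Of the pathway calls named here, those of SLC19A1 and SFXN3 held in all 15 alternatives run. The calls of GLDC, AMT, MAT2A, MTRR, AHCYL2, PTDSS2, PTDSS1 and SPTLC3 were each lost without lncSLCC1 siRNA replicate 1, 2 or 3, where edgeR gave adjusted p-values of 0.0625 to 0.2, and without control replicate 2 those of AMT, MTRR, AHCYL2, PTDSS2, PTDSS1 and SPTLC3 were lost too (0.0649 to 0.142). Without control replicate 3 those of GLDC (0.0698) and AMT (0.065) were lost. That of MTRR was also lost with library totals (0.0591), and that of AHCYL2 with no low-count filter (0.0772).

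**Figure D4:**
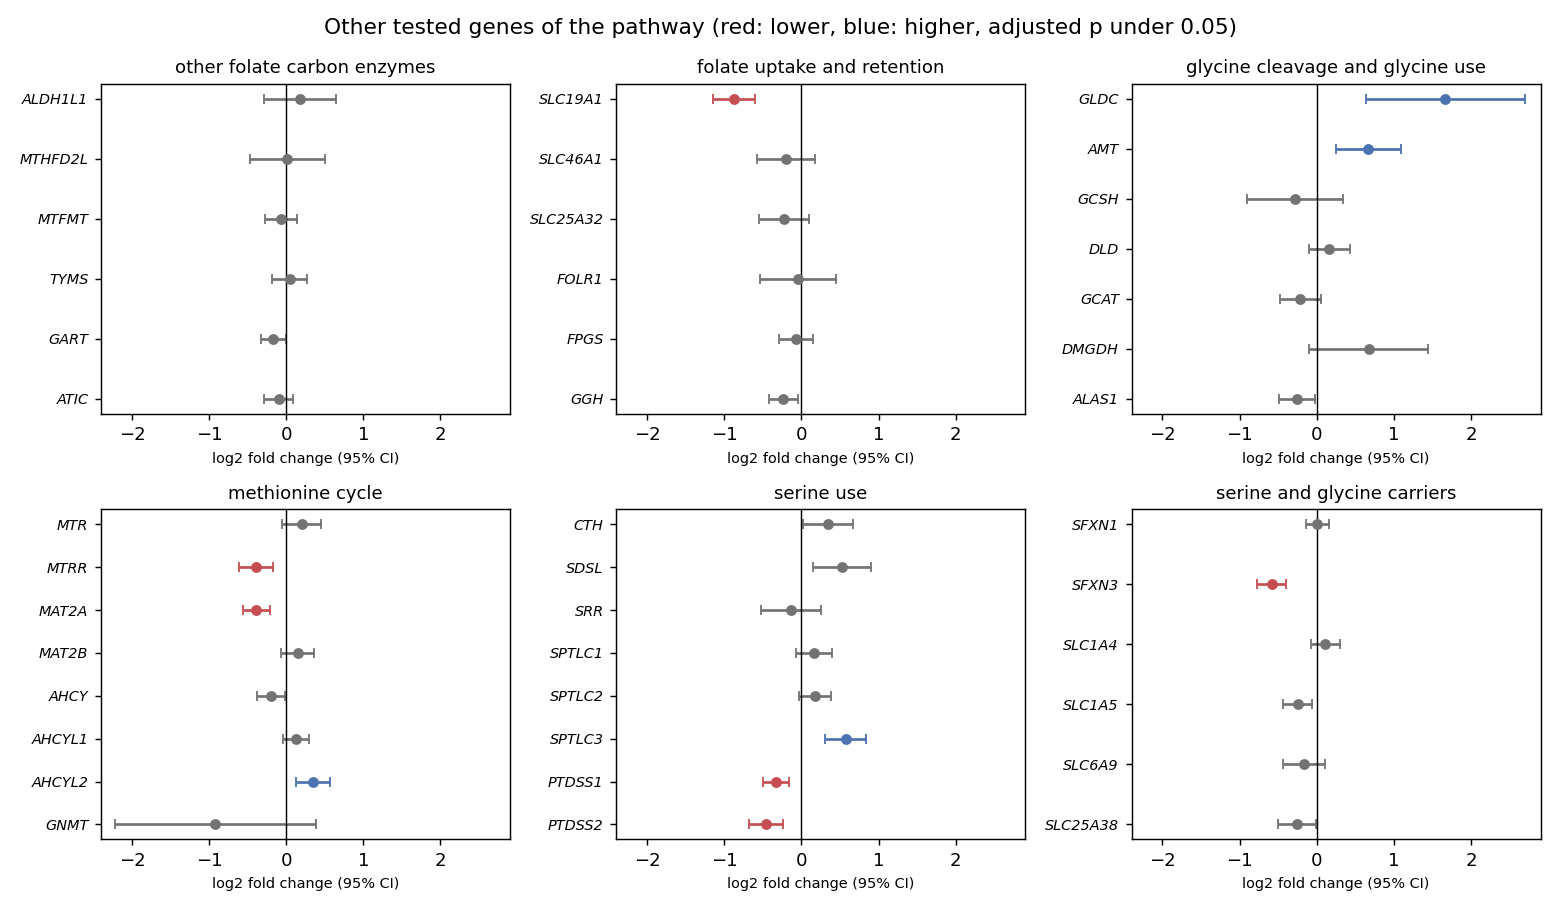
Log2 fold change (x axis) with 95% confidence interval for 41 of the 44 tested genes of 6 pathway lists, lncSLCC1 siRNA against control siRNA by edgeR; red marks genes called lower and blue genes called higher. Calls are spread over the lists, and among called genes SLC19A1, at -0.87, and GLDC, at 1.67, lie farthest out. GLDC passed the expression filter only through its treated libraries.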

How the data were processed

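Total RNA libraries of DLD-1 cells were sequenced, and for each library the authors deposited raw counts of reads, with 1 row per gene symbol. The submitters' processing notes name TopHat2 2.0.11, HTSeq and the builds hg19 and GRCh37, with strand setting and annotation release not given in the sources used here. HTSeq's summary lines were left out. Ambiguous reads were 8.83% to 10.1%, reads without a feature 5.42% to 7.58% and alignments that were not unique 12.8% to 13.8% of each library.

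Counts as deposited were tested with edgeR 4.0.16 (R 4.3.3): quasi-likelihood test, TMM, default expression filter, no covariate, Benjamini-Hochberg adjustment over all 15242 tested genes. Each SE is the absolute log2 fold change divided by the square root of F. The members and gene lists were chosen with earlier results of these data known. Named were all 9 enzymes, the targeted RNA, up to 3 called genes per list and direction with the smallest p, genes under 1 CPM throughout, close relatives and listed pseudogene copies. Log2 ratios of read counts, with 0.5 added, were compared by exact permutation over libraries.

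Alternatives were DESeq2 size factors, library totals, no low-count filter or a mean of at least 1 CPM, DESeq2 1.42.0, limma-voom (limma 3.58.1), a replicate block, offsets for GC content and transcript length, a threshold of 0.01 and each library left out. The offsets were smooth trends of each library's log2 CPM, as a difference from the mean library, on GC content and length of the longest GENCODE 29 transcript, known for 89.4% of tested genes. Leaving out a library leaves 2 against 3 and moves the number of calls over all genes strongly. Tested on simulated data for lncSLCC1 siRNA against control siRNA (15250 genes tested), the test called 58 of 100 genes changed 1.5-fold and 92 of 100 changed 2-fold, with 4 false calls. Only 100 genes were changed in each simulation, while 1126 lower and 984 higher were called in the data. The adjustment depends on that number, so these rates need not hold for the data. Per-library counting intervals are not given, since the spread between libraries enters the test. Promoter sequences are from RefSeq, build GRCh38.p14; gene coordinates were not used with the authors' counts. A few genes of the pathway lists entered the fit and the counts but are not reported here by name.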

Additional observations from a re-analysis of the deposited data

How the results depend on the processing

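The count of members called lower, 1, was 2 with no low-count filter, 5 with GC content and length offsets and 1 to 3 when a library was left out; 0 were called higher in every alternative run. Over all genes 1126 were lower and 984 higher. This became 2937 and 1819 with the offsets, 327 and 251 at a threshold of 0.01, and 244 to 2431 lower and 213 to 2112 higher when a library was left out; 1600 were higher with no low-count filter, which tests 30025 genes. The 6 lower and 5 higher pathway genes became 2 and 1 at a threshold of 0.01. With the offsets 13 of 44 were lower, where 19.3% of all tested genes were. Leaving out a library gave 2 to 10 lower and 0 to 7 higher. The 10 came without control replicate 3, where 13.4% of all tested genes were lower. The log2 fold change of SHMT1 turned to 0.005 without control replicate 1; leaving out each library gave -0.139 to 0.005. That of MTHFD1 turned to -0.070 with the offsets and to -0.010, -0.009 and -0.003 without control replicate 2, control replicate 3 or lncSLCC1 siRNA replicate 2, within a range of up to 0.034 over the left-out libraries. That of MTHFD2L turned to -0.081 with the offsets and to -0.226 and -0.025 without control replicate 1 or lncSLCC1 siRNA replicate 2, with 0.197 as the highest over the left-out libraries. That of ALDH1L1 turned to -0.036 without lncSLCC1 siRNA replicate 1, with 0.333 as the highest. The summed level of the 8 members without SHMT2 differed by -65.2 CPM, and by -23.1 CPM on library totals, a setting added after seeing the data. The causes were not tested. The 3 ratios kept their direction in each alternative run.

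Whether libraries with the same replicate number share anything beyond that number is not given in the sources used here. Their deviations correlated at 0.094, 0.001 and -0.016, which with 3 libraries a side cannot settle it. With the replicate number as a block 1059 genes were lower and 993 higher, 1 member was lower, AHCYL2 lost its call (adjusted p = 0.0738 by edgeR) and ATF4 gained one (0.0361). Depth limits ALDH1L2 and GLDC, which had 18 reads or fewer in each library.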

Other observations

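Of the 2 transcription factors whose motifs were searched, MYC was called lower after lncSLCC1 siRNA and ATF4 was not called. MYC was at 257, 244 and 221 CPM in controls and 170, 156 and 157 CPM in treated libraries, and fell to 67.0% of the control level (edgeR log2 fold change -0.58 with an SE of 0.084, adjusted p = 0.00305). ATF4 was at 609, 505 and 434 CPM in controls and 413, 377 and 394 CPM in treated libraries. Every treated library was below every control, but the test was not passed (edgeR log2 fold change -0.39 with an SE of 0.115, adjusted p = 0.0514). It did in 7 of 15 alternatives, with an adjusted p of 0.00013 to 0.198 over all of them. NFE2L2, which encodes the antioxidant regulator NRF2, was at 141.7 ± 10.05 CPM in controls and 126.9 ± 5.64 CPM in treated libraries (SD, n = 3 each; adjusted p = 0.217 by edgeR).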
